A study of Homo sapiens with 5 samples.

Results

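The integrated stress response and the unfolded protein response were examined through 40 genes listed by symbol, from the stress sensors to the chaperones and enzymes that they control. All 40 symbols were found among the 26364 in the data, with a value in each of 5 libraries. The cells were SH-SY5Y (ATCC CRL-2266), a human neuroblastoma line that is widely used as a model of neurons. Each of 5 groups had 1 library, named here by its title: siControl, siSTAU1, siUPF1, Nondifferentiation and Differentiation. The first 3 titles name a control siRNA and siRNAs against STAU1, which recognizes double-stranded stretches in mRNAs, and against UPF1, the helicase of nonsense-mediated mRNA decay and Staufen-mediated decay (SMD). Growth media labels give 10% serum and 1% antibiotics for all of them, and add 50 uM retinoic acid for Nondifferentiation as well as for Differentiation. The title Nondifferentiation and its retinoic acid label point different ways, and which of them holds for that library could not be settled. The labels give no siRNA dose and no time after transfection or retinoic acid. The siRNA targets were low in their own libraries: STAU1 stood at 11.34 in siSTAU1 and between 12.86 and 12.89 in the other 4, and UPF1 stood at 9.20 in siUPF1 and between 10.62 and 10.74 in the others. The series asks which transcripts were higher both when the decay factors were depleted and in differentiation.

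In the integrated stress response, kinases such as PERK (EIF2AK3), which senses unfolded protein in the endoplasmic reticulum (ER), and GCN2 (EIF2AK4), which senses missing amino acids, phosphorylate the initiation factor eIF2. Most translation then slows, while mRNAs with upstream open reading frames, ATF4 above all, are translated more. ATF4 and its C/EBP partners switch on genes for amino acid synthesis and import. In the unfolded protein response PERK is joined by ATF6, a membrane-bound transcription factor, and IRE1 (ERN1), which splices the XBP1 mRNA, and these raise ER chaperones and ER-associated degradation. ATF4 and other stress mRNAs are also textbook substrates of nonsense-mediated decay because of their upstream reading frames. These are levels of mRNA per gene symbol, so neither eIF2 phosphorylation nor XBP1 splicing nor translation was measured.

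The 2 branches act through different promoter elements, and 5 promoters that each hold a match are shown, from genes with different patterns across the libraries. Whether the elements have a part in those patterns was not tested. They span 250 bases before to 50 bases after the start, as RefSeq gives them on GRCh38.p14. Capitals mark matches to the ER stress elements ERSE (CCAAT, then 9 bases of any kind, then CCACG) and ERSE-II (ATTGG, then 1 base of any kind, then CCACG) or to the C/EBP-ATF response element CARE (TGATGNAA), on either strand. HSPA5 encodes BiP, the main ER chaperone, CRELD2 an ER stress-inducible protein, HERPUD1 an organizer of ER-associated degradation, ASNS asparagine synthetase and SLC7A1 a transporter of cationic amino acids. The windows lie at chr9:125241294-125241593 on the minus strand for HSPA5, chr22:49918384-49918683 on the plus strand for CRELD2, chr16:56931892-56932191 on the plus strand for HERPUD1, chr7:97872359-97872658 on the minus strand for ASNS and chr13:29595639-29595938 on the minus strand for SLC7A1.
HSPA5: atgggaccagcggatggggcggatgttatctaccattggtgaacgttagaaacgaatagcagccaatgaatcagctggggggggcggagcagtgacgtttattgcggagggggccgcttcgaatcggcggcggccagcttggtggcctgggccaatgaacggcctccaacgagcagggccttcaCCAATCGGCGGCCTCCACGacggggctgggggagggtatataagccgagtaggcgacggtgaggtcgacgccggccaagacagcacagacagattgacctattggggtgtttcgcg
CRELD2: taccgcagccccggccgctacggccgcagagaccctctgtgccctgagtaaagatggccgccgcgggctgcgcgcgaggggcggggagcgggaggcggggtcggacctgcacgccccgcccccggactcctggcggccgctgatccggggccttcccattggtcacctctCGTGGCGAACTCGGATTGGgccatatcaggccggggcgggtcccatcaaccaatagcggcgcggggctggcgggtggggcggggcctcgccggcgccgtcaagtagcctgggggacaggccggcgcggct
HERPUD1: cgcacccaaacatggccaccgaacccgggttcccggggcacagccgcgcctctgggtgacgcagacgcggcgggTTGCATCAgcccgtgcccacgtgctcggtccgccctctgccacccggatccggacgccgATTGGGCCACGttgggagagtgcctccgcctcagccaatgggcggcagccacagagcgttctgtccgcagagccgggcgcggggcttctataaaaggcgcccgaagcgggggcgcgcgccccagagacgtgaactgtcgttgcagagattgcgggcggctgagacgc
ASNS: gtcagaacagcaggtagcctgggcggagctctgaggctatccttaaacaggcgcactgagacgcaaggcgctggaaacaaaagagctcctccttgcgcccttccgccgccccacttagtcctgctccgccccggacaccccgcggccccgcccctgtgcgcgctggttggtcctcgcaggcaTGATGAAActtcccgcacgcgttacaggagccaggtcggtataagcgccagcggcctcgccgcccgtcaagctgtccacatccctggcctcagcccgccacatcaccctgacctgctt
SLC7A1: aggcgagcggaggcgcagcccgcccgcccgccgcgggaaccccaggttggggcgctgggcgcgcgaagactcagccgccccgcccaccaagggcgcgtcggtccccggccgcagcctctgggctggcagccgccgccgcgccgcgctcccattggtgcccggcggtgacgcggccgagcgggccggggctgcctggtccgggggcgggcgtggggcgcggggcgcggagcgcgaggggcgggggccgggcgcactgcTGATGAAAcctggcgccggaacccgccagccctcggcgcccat

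The HSPA5 match is an ERSE that begins 66 bases before the start, and that of CRELD2 is an ERSE on the other strand, 80 bases before it. HERPUD1 carried both kinds, a CARE at 176 and an ERSE-II at 117 bases before the start. In ASNS the CARE lies 68 bases before the start, and in SLC7A1 its first base is base 8 after it. Of the 40 members 36 had a promoter in the table (PSPH, SHMT2, PYCR1 and SLC7A11 had none). An ERSE was found in 7 of these 36 (XBP1, HSPA5, HSP90B1, PDIA6, CALR, CANX and CRELD2), or 19.4%, against 0.0916% of all 27305 symbols with a promoter. An ERSE-II was found in 3 (HYOU1, SDF2L1 and HERPUD1), or 8.33% against 0.0696%. A CARE was found in 6 (CEBPG, CHAC1, ASNS, SLC3A2, SLC7A1 and HERPUD1), or 16.7% against 4.46%. The unfolded protein response element UPRE (TGACGTGG) was found in ALDH18A1 and HYOU1, 5.56% against 0.927%, and in HYOU1 it overlaps an ERSE-II. The ERSE and ERSE-II matches included 8 of the 11 ER chaperones and folding factors and 0 of the 8 amino acid enzymes and transporters with a promoter, while the CARE matches included 3 of those 8. No CARE was found in PSAT1, PHGDH, MTHFD2, ALDH18A1 or SLC7A5, and no ERSE or ERSE-II in DNAJB9, PDIA4 or MANF. Members such as these helped define the elements, so the shares describe the list and nothing more.

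**Figure D1:**
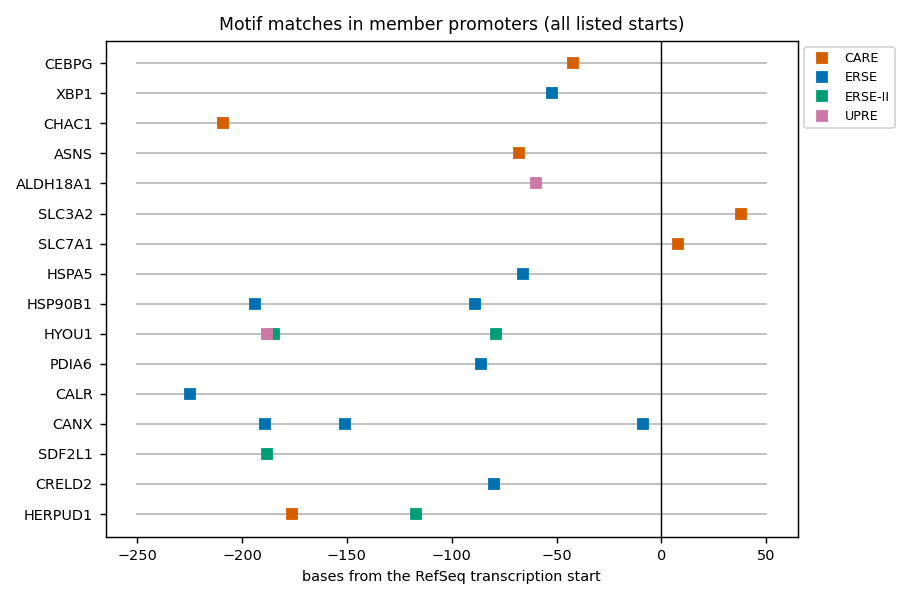
Position of each motif match (squares, first base) in bases from the RefSeq transcription start, for the 16 members with a match to any of the 4 motifs, over all starts listed for a symbol. Blue ERSE and green ERSE-II squares lie in ER chaperone genes and in XBP1 and HERPUD1, and orange CARE squares in CEBPG, CHAC1, ASNS, SLC3A2, SLC7A1 and HERPUD1.

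All values are the deposited log2 expression values of 3' end sequencing, and a log2 fold is the difference between 2 libraries. A gene counts as measured in a comparison when the larger value reaches the median of all nonzero values of the 2 libraries, about 7.8, and a member is called higher or lower past 1.5-fold (a log2 fold of 0.58) or past 2-fold. With 1 library a group no difference has a replicate check, no test was possible, and the spread between cultures is unknown. Read depth, judged from how finely the smallest values are spaced, ran from about 1.41e+07 reads in siControl to 3.34e+07 in Differentiation. The counting SE of a measured member's log2 fold was then at most 0.153 in siSTAU1, 0.147 in siUPF1, 0.126 in Differentiation and 0.175 in siControl against Nondifferentiation, and covers counting error only. Of the 40 members, 36 reached the floor in at least 1 library and 34 were measured in all 4 comparisons. ERN1, CEBPB, CHAC1 and SLC7A11 never reached it. The sources used here do not say whether counting used strand, and 17 members have an exon that overlaps a gene on the opposite strand, among them ATF5, DDIT3, MTHFD2, SLC7A5, CRELD2, HSP90B1 and HYOU1, so their values may include reads of the partner. DDIT3, for one, overlaps MARS, which stood between 9.44 and 9.84.

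**Figure D2:**
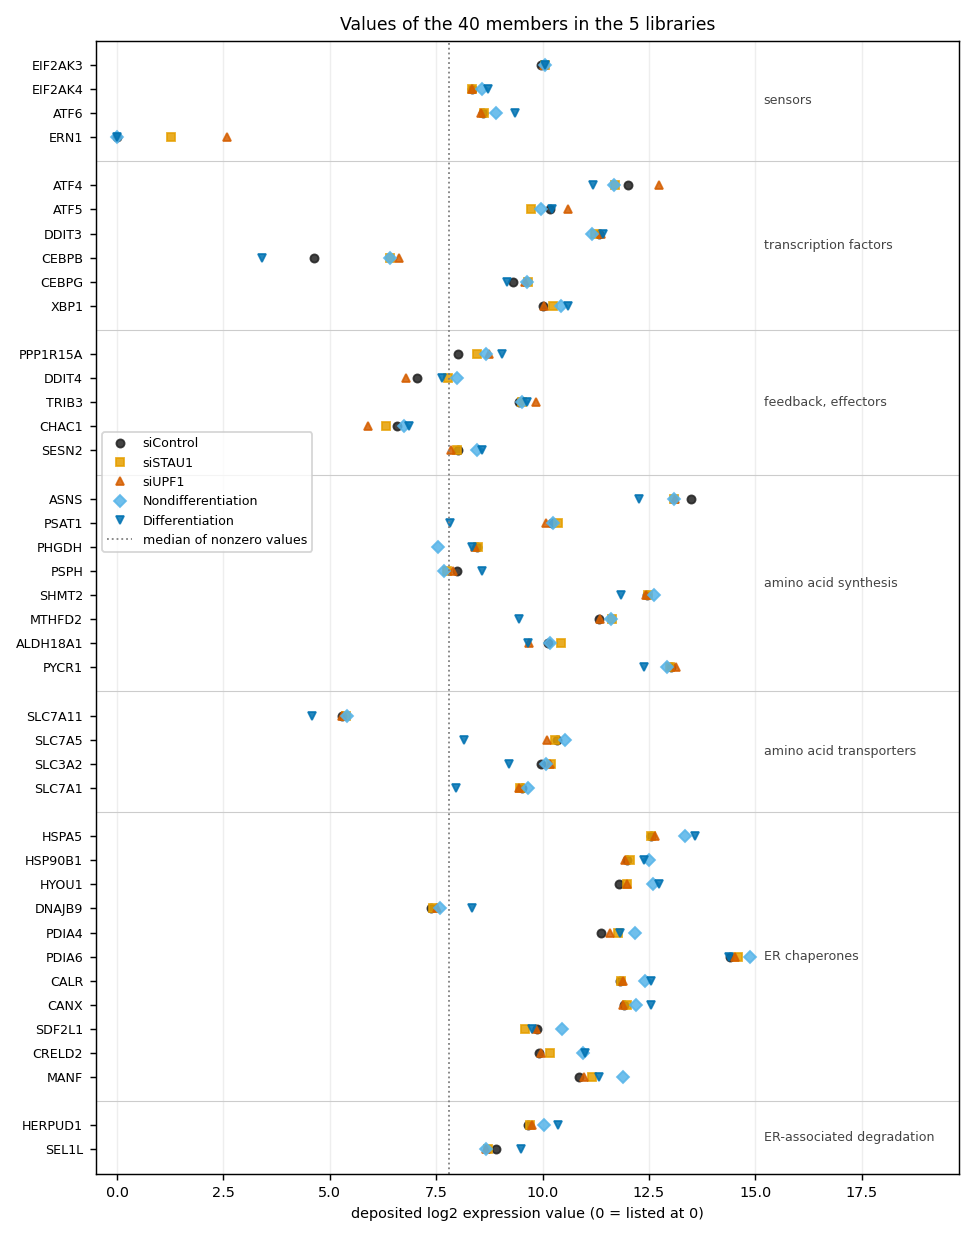
Deposited log2 value of each of the 40 members (rows, by role) in the 5 libraries (symbols), with the median of all nonzero values of the 5 libraries, 7.81, as a dotted line. Amino acid genes such as PSAT1, MTHFD2, SLC7A5 and SLC7A1 have Differentiation far to the left of the other 4 symbols, and ER chaperones such as HSPA5, HYOU1 and CRELD2 have the 3 siRNA libraries to the left of the other 2.

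Amino acid supply genes were the members that differed most between Differentiation and Nondifferentiation, with most of them lower and 2 enzymes of serine synthesis higher. Of 36 measured members 8 were lower and 4 were higher past 1.5-fold, or 22.2% and 11.1%, where 21.7% and 21.8% of 9064 measured genes were. Past 2-fold 4 members were lower and 0 were higher, against 10.9% and 10.4% of genes. The share of lower members was thus close to that of all genes, and their median log2 fold of 0.03 was close to the 0.02 of all measured genes. The members called lower were 7 amino acid enzymes and transporters and the chaperone SDF2L1. Against siControl in place of Nondifferentiation 9 members were lower past 1.5-fold and 11 were higher, the latter including HSPA5 at 1.05 and CRELD2 at 1.09. The share of all genes was not worked out for that pair, so these counts have no background beside them.

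PSAT1, the transaminase of the serine pathway, stood at 10.23 in siControl, 10.37 with siSTAU1, 10.09 with siUPF1, 10.26 in Nondifferentiation and 7.83 in Differentiation. Its log2 fold in the differentiation pair was -2.43 (counting SE 0.085), which is 5.38-fold lower. MTHFD2, a mitochondrial enzyme of the folate cycle that uses one-carbon units from serine, stood at 11.32, 11.64, 11.35, 11.61 and 9.46 in the same order, a log2 fold of -2.15 or 4.43-fold lower. For both genes the other 4 libraries lay within 0.31 of each other and Differentiation lay alone below them. SHMT2, which moves a one-carbon unit from serine to folate in mitochondria, stood at 12.46, 12.48, 12.43, 12.61 and 11.84, a log2 fold of -0.78. ASNS stood at 13.49, 13.08, 13.12, 13.08 and 12.27, a log2 fold of -0.81. Differentiation again held the lowest value of both, and ASNS was highest in siControl.

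The first and last enzymes of serine synthesis had the opposite sign. PHGDH, the dehydrogenase that starts the pathway, stood at 8.46 in siControl, 8.47 with siSTAU1, 8.41 with siUPF1, 7.53 in Nondifferentiation and 8.34 in Differentiation, a log2 fold of 0.81 in the differentiation pair (counting SE 0.126). Here Nondifferentiation stood alone as the low library, and against siControl the Differentiation fold was -0.12, so the call rests on Nondifferentiation. PSPH, the phosphatase that ends the pathway, stood at 7.99, 7.76, 7.90, 7.68 and 8.58, a log2 fold of 0.91 (counting SE 0.119), with Differentiation above all others. PSPH has a near-identical pseudogene copy, so its values are uncertain. The 3 enzymes of this one pathway, PHGDH, PSAT1 and PSPH, therefore did not share a direction. ALDH18A1 and PYCR1, which make proline from glutamate, had log2 folds of -0.52 and -0.55, short of the 1.5-fold call.

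All 3 measured amino acid transporters were lower in Differentiation. SLC7A5 (LAT1), which carries large neutral amino acids, stood at 10.34 in siControl, 10.29 with siSTAU1, 10.10 with siUPF1, 10.52 in Nondifferentiation and 8.16 in Differentiation, a log2 fold of -2.36 or 5.14-fold lower. SLC3A2, the heavy chain that pairs with SLC7A5 and SLC7A11, stood at 9.97, 10.20, 10.17, 10.09 and 9.22, a smaller log2 fold of -0.87. The heavy chain thus differed less than its LAT1 partner. SLC7A1 stood at 9.51, 9.47, 9.45, 9.66 and 7.98, a log2 fold of -1.69 or 3.22-fold lower. SLC7A11, the cystine-glutamate exchanger, lay below the floor in every library, at 5.29, 5.38, 5.29, 5.41 and 4.58. SLC7A5 has near-identical copies, of which SLC7A5P2 stood between 3.81 and 5.25 and SLC7A5P1 at 0.26 or less, far below SLC7A5 itself.

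Taking all 5 libraries, 7 of the 36 members that reached the floor were lower in Differentiation than in each of the other 4 by at least 1.5-fold, where 16.9% of 9217 genes were. These were ASNS, PSAT1, SHMT2, MTHFD2, SLC7A5, SLC3A2 and SLC7A1, that is 7 of the 11 measured amino acid genes and 0 of the other members. PSPH and DNAJB9 were higher than in each of the other 4, where 14.9% of genes were. This count was chosen after the values had been seen. Among all 36 members the share lower in this way was close to the share of all genes.

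**Figure D3:**
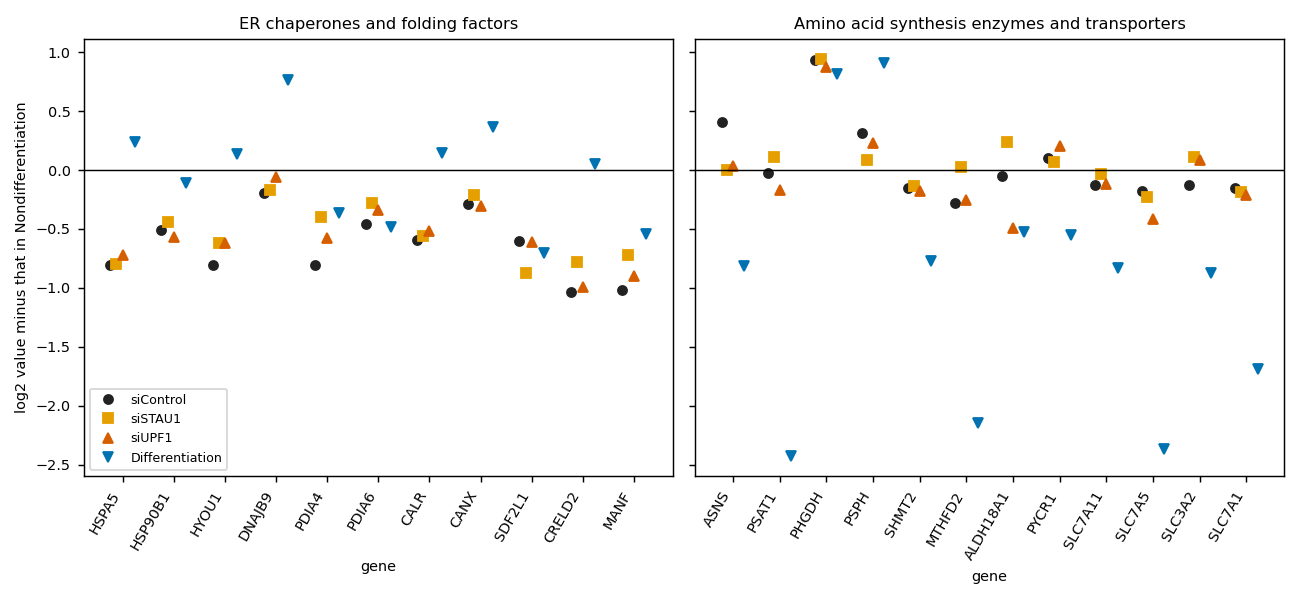
Log2 value in each of 4 libraries (symbols) minus that in Nondifferentiation (line at 0) for the 11 ER chaperones and folding factors and for the 12 amino acid enzymes and transporters. On the left the siRNA libraries lie below 0 for every chaperone, and on the right Differentiation lies at -2.43 for PSAT1, -2.36 for SLC7A5, -2.15 for MTHFD2 and -1.69 for SLC7A1 while PHGDH is above 0 in all 4.

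The regulators above these enzymes differed less in the differentiation pair. ATF4 stood at 11.69 in Nondifferentiation and 11.18 in Differentiation, a log2 fold of -0.51 (counting SE 0.035), the lowest of its 5 values but short of the call. CEBPG, a C/EBP partner of ATF4, had -0.49, from 9.65 to 9.16. ATF5, a related factor with upstream reading frames, and DDIT3 (CHOP), the pro-apoptotic factor downstream of ATF4, had 0.27 each. Against siControl in place of Nondifferentiation ATF4 had -0.84, past 1.5-fold, while CEBPG had -0.16, ATF5 0.06 and DDIT3 0.10. DDIT3 stood at 11.33 in siControl, 11.24 with siSTAU1, 11.38 with siUPF1, 11.16 in Nondifferentiation and 11.43 in Differentiation, a range of 0.27 over all libraries. So the mRNA of CHOP was among the steadiest of the members. CEBPB, below the floor throughout, stood at 4.63, 6.42, 6.62, 6.42 and 3.41, from about 18 reads each in siControl and Differentiation.

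Among feedback and effector genes 0 of 4 measured members were called in the differentiation pair, where 21.8% of genes were higher and 21.7% lower. PPP1R15A (GADD34), which brings the phosphatase back to eIF2, had a log2 fold of 0.37, and DDIT4 (REDD1), an inhibitor of mTORC1, had -0.35. TRIB3, a pseudokinase that restrains ATF4, had 0.10 and SESN2, a stress-inducible leucine sensor upstream of mTORC1, had 0.13. CHAC1, which degrades glutathione, stood between 5.89 and 6.87, under the floor. Of the sensors, EIF2AK3 stood between 9.97 and 10.07 in all 5 libraries and had a log2 fold of 0.01, while EIF2AK4 had 0.15 and ATF6 had 0.44. PERK mRNA was thus level across the series. ERN1 was listed at 0 in siControl, Nondifferentiation and Differentiation, and its 1.26 in siSTAU1 and 2.58 in siUPF1 came from a few reads.

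ER genes were mixed in the same pair, with 2 higher and 1 lower of 13 measured, both smaller shares than the 21.8% and 21.7% of all measured genes. DNAJB9 (ERdj4), a BiP cochaperone, stood at 7.39 in siControl, 7.42 with siSTAU1, 7.53 with siUPF1, 7.59 in Nondifferentiation and 8.35 in Differentiation, a log2 fold of 0.76. SEL1L, the adaptor of the HRD1 ubiquitin ligase, stood at 8.91, 8.72, 8.67, 8.67 and 9.48, a log2 fold of 0.82. Both were highest in Differentiation. SDF2L1, an ER protein that acts with BiP cochaperones, stood at 9.86, 9.60, 9.85, 10.47 and 9.76, a log2 fold of -0.70 in which Nondifferentiation was the high library. Against siControl SDF2L1 had -0.10 and SEL1L 0.58, both short of the call. XBP1 stood at 10.01, 10.25, 10.04, 10.44 and 10.61, with a log2 fold of 0.17. The remaining ER members lay between -0.55 for MANF, a secreted ER stress factor, and 0.36 for the lectin chaperone CANX, and HERPUD1 had 0.33.

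**Figure D4:**
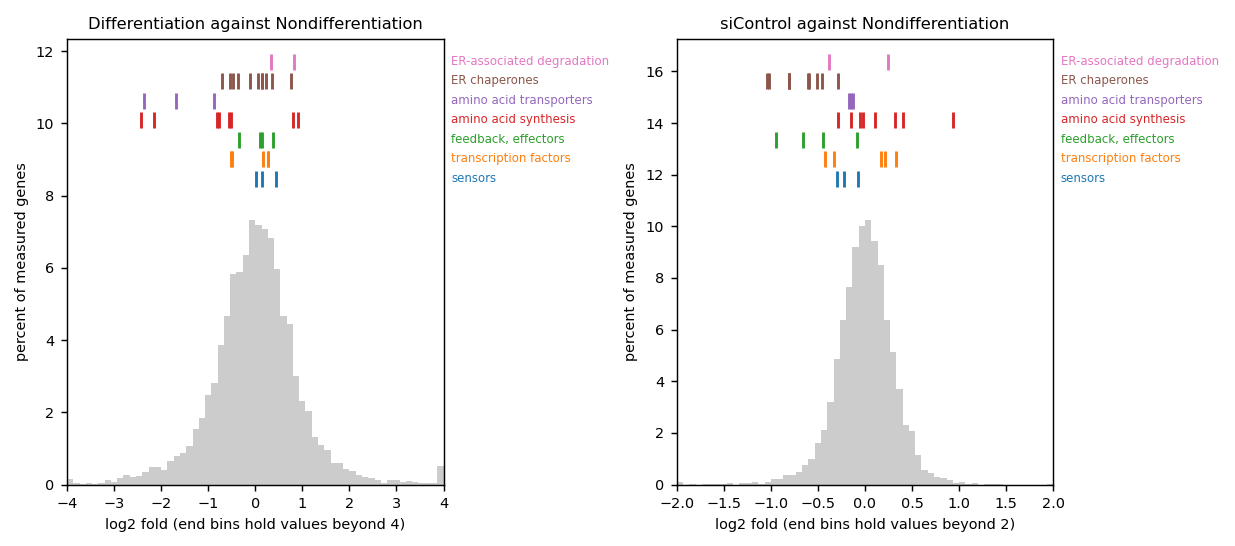
Log2 folds of all measured genes (grey histogram, percent of genes) and of the measured members by role (coloured ticks) in Differentiation against Nondifferentiation and in siControl against Nondifferentiation. In the first panel the 3 transporters lie at -0.87 or below, and in the second all 10 measured ER chaperones lie at -0.29 or below.

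ATF4 and PPP1R15A were the members called in siUPF1 against siControl, both higher. ATF4 stood at 12.02 in siControl, 11.69 with siSTAU1, 12.74 with siUPF1, 11.69 in Nondifferentiation and 11.18 in Differentiation, a log2 fold of 0.72 (counting SE 0.032), which is 1.65-fold. PPP1R15A stood at 8.01, 8.46, 8.73, 8.67 and 9.04, also a log2 fold of 0.72 (counting SE 0.130). In ATF4 siUPF1 lay above every other library, whereas for PPP1R15A siControl was the low library and siUPF1 lay within the range of the rest. With Nondifferentiation as the reference ATF4 had 1.06 and PPP1R15A had 0.06. There 3 members were higher (ATF4, ATF5 at 0.65 and PHGDH at 0.87) and 7 lower past 1.5-fold, but the share of all genes was not worked out for that pair. Against siControl the 2 members called higher, of 34 measured, compare with 3.0% of 8475 genes higher past 1.5-fold. The 0 members called lower compare with 1.56%. Past 2-fold 0 members were called, against 0.401% of genes higher and 0.142% lower.

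ATF4 was also the single member of 36 that stood above all other libraries by 1.5-fold in siUPF1, where 0.434% of genes did, and 0 stood below by that much, where 0.217% did. ATF5 at 10.61 and TRIB3 at 9.85 were likewise highest in siUPF1, with log2 folds against siControl of 0.44 and 0.41 that miss the call. All 5 measured transcription factors had positive folds, from 0.03 for XBP1 to 0.72, with DDIT3 at 0.05. Of the 5 mRNAs listed as having upstream reading frames (ATF4, ATF5, DDIT3, PPP1R15A and CEBPB), 4 were measured and had a median log2 fold of 0.58, against -0.01 for all measured genes. That a higher ATF4 appears after UPF1 knockdown was known when this list was chosen.

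Among the enzymes and transporters downstream of ATF4, 0 were called in siUPF1, where 3.0% of 8475 genes were higher and 1.56% lower. At such shares 0 calls among so few genes says little. ASNS had a log2 fold of -0.38, ALDH18A1 -0.44 and PSAT1 -0.15, and the 8 synthesis enzymes had a median of -0.07, with 6 of 8 negative. The 3 measured transporters lay between -0.24 for SLC7A5 and 0.21 for SLC3A2. SESN2 had -0.16. The ER chaperones had a median of 0.08, from -0.06 for HSP90B1 (GRP94) to 0.23 for the disulfide isomerase PDIA4. HSP90B1 has a near-identical copy, HSP90B2P, at 8.88 to 9.54, which may share its reads. None of these measured members passed 1.5-fold in either direction, which again says little at the all-gene shares given above. CHAC1, below the floor and so not called, stood at 6.58 in siControl and 5.89 in siUPF1, a log2 fold of -0.69. Folds in siUPF1 went with GC content across measured genes (Pearson r 0.27, a description over genes that share 2 libraries), and with the trend in GC content and length removed ATF4 had 0.64 and PPP1R15A 0.62, past the call.

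In siSTAU1 against siControl 0 of 34 measured members passed 1.5-fold, where 1.02% of 8454 genes were higher and 1.29% lower, and 0 passed 2-fold, where 0.0946% were higher and 0.106% lower. The members spanned -0.44 for ATF5 to 0.45 for PPP1R15A, with a median of 0.04 against 0.01 for all measured genes. ATF4 had -0.33 and ASNS -0.41, and in both genes siControl was above siSTAU1 and Nondifferentiation alike, so against Nondifferentiation they had 0.01 and 0.00. With that reference 5 members were lower and 1 was higher past 1.5-fold, but the share of all genes was not worked out for that pair. Against siControl PDIA4 had 0.41 and XBP1 0.24. In 0 members did siSTAU1 stand outside the other 4 libraries by 1.5-fold, where 0.0976% of genes stood above and 0.456% below. ATF5 was lowest in siSTAU1, at 9.73, and highest in siUPF1, at 10.61. The 2 knockdown comparisons share siControl.

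**Figure D5:**
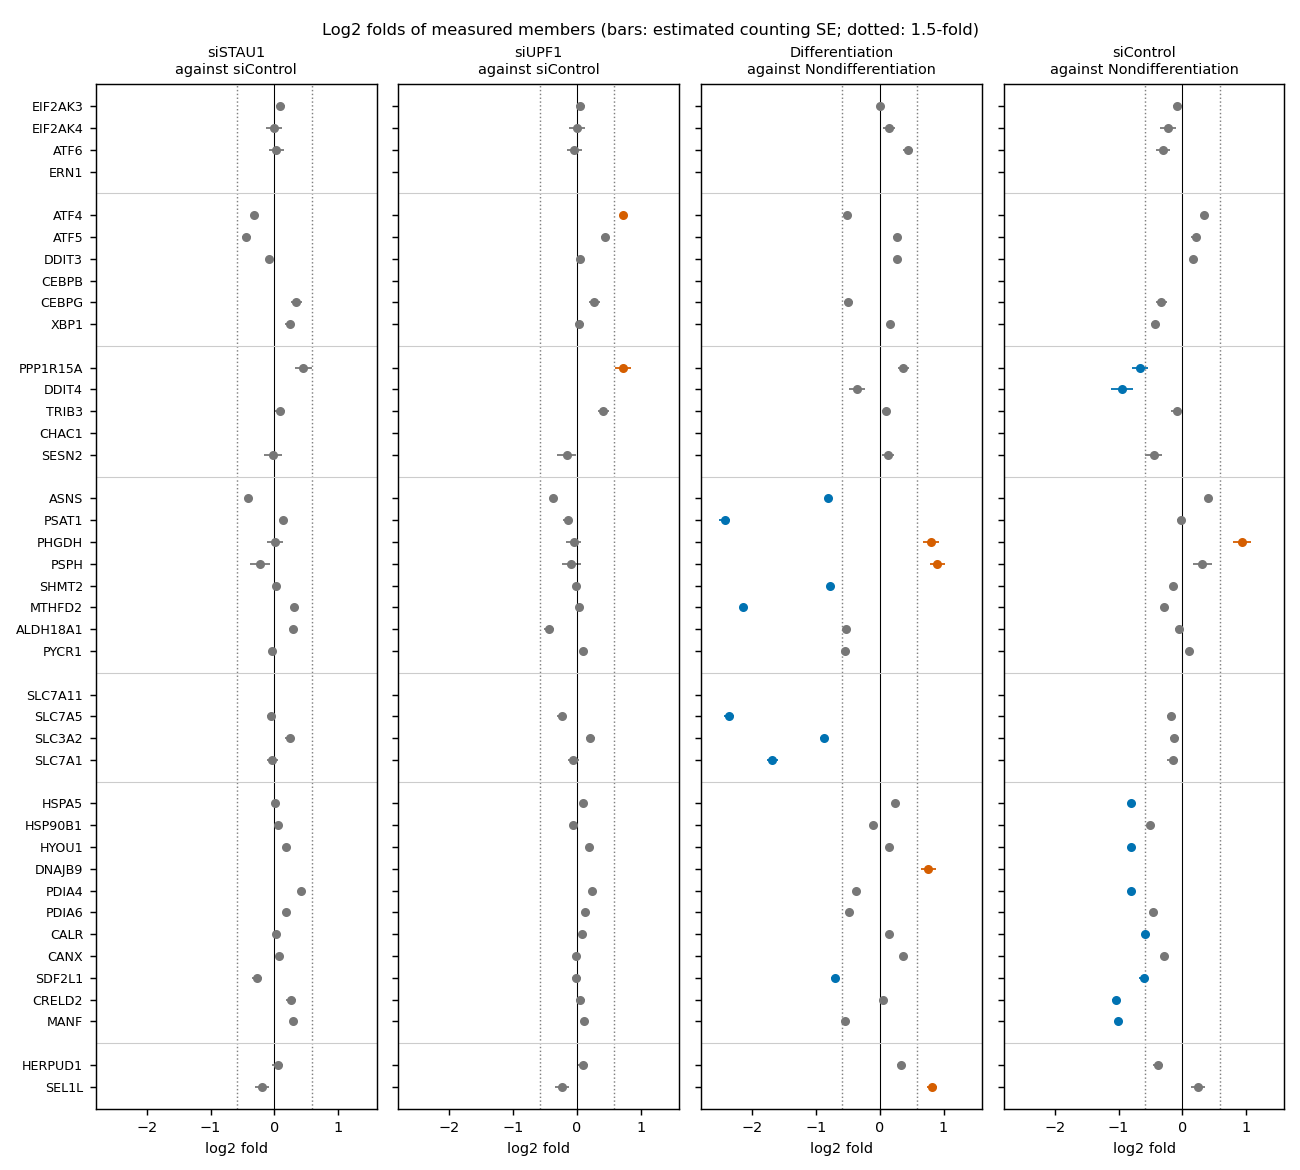
Log2 fold of each measured member in the 4 comparisons, with the estimated counting SE as bars and the 1.5-fold limits as dotted lines. Orange points were called higher and blue points lower: 0 in siSTAU1, 2 in siUPF1, 12 in Differentiation and 10 in siControl against Nondifferentiation, where 7 of the blue points are ER chaperones.

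The ER chaperones separated the siRNA libraries from the other 2. In siControl against Nondifferentiation all 10 measured chaperones and folding factors had negative log2 folds, with a median of -0.70 where all measured genes had 0.00, and 7 of the 10 were lower past 1.5-fold. With the trend in GC content and length removed CALR at -0.55 and SDF2L1 at -0.50 missed the call, which left 5 of the 10 chaperones and 7 members lower. Over all 35 measured members 9 were lower and 1 was higher past 1.5-fold, or 25.7% and 2.86%, where 3.21% and 2.26% of 8547 genes were. Past 2-fold 2 were lower (CRELD2 and MANF) and 0 higher, against 0.573% and 0.222%. The one higher member was PHGDH, described above, at 0.93. The other 2 lower members were PPP1R15A at -0.66 and DDIT4 at -0.94.

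HSPA5 stood at 12.54 in siControl, 12.56 with siSTAU1, 12.64 with siUPF1, 13.35 in Nondifferentiation and 13.59 in Differentiation. Its siControl log2 fold against Nondifferentiation was -0.81 (counting SE 0.026), or 1.75-fold lower. CRELD2 stood at 9.91, 10.17, 9.96, 10.95 and 11.00 in the same order, a log2 fold of -1.04. In both genes the 3 siRNA libraries lay close together, within 0.26, and did not overlap the other 2. HYOU1, a large BiP-related chaperone, stood at 11.80, 11.98, 11.98, 12.60 and 12.74, a log2 fold of -0.80. CALR, the lectin chaperone calreticulin, stood at 11.81, 11.84, 11.88, 12.40 and 12.55, and its log2 fold of -0.59 is just past the call. These 2 likewise showed no overlap, with the siRNA libraries within 0.18 of each other.

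For 3 further members Nondifferentiation was the high library and Differentiation lay between it and the siRNA libraries or among them. MANF stood at 10.86 in siControl, 11.16 with siSTAU1, 10.98 with siUPF1, 11.88 in Nondifferentiation and 11.33 in Differentiation, a siControl log2 fold of -1.02. PDIA4 stood at 11.37, 11.78, 11.60, 12.18 and 11.81, a log2 fold of -0.81, and its siSTAU1 and Differentiation values were nearly equal. SDF2L1, whose values are given above, had -0.60 and overlapped. DDIT4 stood at 7.04, 7.79, 6.79, 7.99 and 7.63, so siSTAU1 lay between Differentiation and Nondifferentiation and the siRNA libraries spanned 1.00. PPP1R15A overlapped too, with siUPF1 above Nondifferentiation.

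Across the 5 libraries 14 of the 36 members that reached the floor were lower in all 3 siRNA libraries than in both others, or 38.9%, where 14.4% of 9217 genes were, and 3 were higher, or 8.33%, where 13.5% of genes were. The 14 comprised 9 of the 11 ER chaperones and folding factors, all but PDIA6 and SDF2L1, with HERPUD1, XBP1, ATF6, EIF2AK4 and SESN2. The amino acid genes held 0 of the 14. This count was chosen after the values were seen. For PDIA4 and DNAJB9 the gap between the groups was 0.03 and 0.06, less than the counting SE of their siControl log2 folds, 0.040 and 0.170, and the 7 other chaperones had gaps of 0.18 to 0.78. The median difference between the mean of the 3 siRNA libraries and that of the other 2 was -0.52 for the chaperones and 0.00 for all genes. The 3 siRNA libraries also differ from the other 2 in transfection, as their titles imply, and in the retinoic acid of the growth media label, which is in doubt for Nondifferentiation. These cannot be told apart from each other or from the culture of origin.

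The 6 lists of related genes held 125 genes in all and were set beside the members. Of 38 measured further genes of ER folding, translocation and degradation, 7 were higher and 0 lower past 1.5-fold in Differentiation, with WFS1, the ER membrane protein wolframin, at 1.36 and ERP44, a thiol-retention factor, at 0.75. That is 18.4% higher, where 21.8% of all measured genes were higher and 21.7% lower. In siUPF1 1 of 38 was higher, where 3.0% of genes were: EDEM2, a factor of glycoprotein degradation, at 1.32. In siControl against Nondifferentiation 1 of 38 was lower, where 3.21% of genes were: the BiP cochaperone DNAJB11 at -0.66, and their median was -0.17. Of the 39 that reached the floor 13 were lower in all 3 siRNA libraries than in both others, or 33.3%, where 14.4% of all genes were.

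Further ATF4 and CHOP target genes were split in Differentiation, with 4 higher and 9 lower of 23 measured, or 17.4% and 39.1%, where 21.8% and 21.7% of all measured genes were. XPOT, a tRNA export receptor, had a log2 fold of -2.53 and SLC1A5, the glutamine transporter ASCT2, had -1.98, while the ubiquitin ligase adaptor KLHL24 had 1.42 and JDP2, a bZIP repressor, had 1.15. XPOT and SLC1A5 were thus lower in Differentiation, as SLC7A5 and SLC7A1 were. In siUPF1 4 were higher and 1 lower, or 17.4% and 4.35% where 3.0% and 1.56% of genes were, with the transcription factor ATF3 at 1.19, the stress cytokine GDF15 at 0.75 and XPOT at -0.65. GDF15 also had -1.25 in siControl against Nondifferentiation, so the control was the low library there. In siSTAU1 0 of 23 were called, where 1.02% of genes were higher and 1.29% lower. Genes of eIF2, its kinases and eIF2B were lower in Differentiation in 6 of 15, or 40%, and higher in 0, led by the eIF2B subunit EIF2B1 at -0.83 and EIF2S2, a subunit of eIF2, at -0.75. EIF2B4, another eIF2B subunit, was the one gene of this list called in the knockdowns, at -0.74 in siSTAU1 and -0.68 in siUPF1 against their shared control.

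In Differentiation, where 21.8% of measured genes were higher and 21.7% lower, other serine and one-carbon genes had 3 higher and 5 lower of 13 measured, or 23.1% and 38.5%. They ranged from TYMS, thymidylate synthase, at -2.20 and MTHFD1L, a mitochondrial folate enzyme, at -1.66 to ALDH4A1, a proline breakdown enzyme, at 1.33. In siUPF1 1 of 12 measured genes of this list was higher, AMT at 0.735, and 1 was lower, MTHFD1L at -0.68. That is 8.33% each, where 3.0% of genes were higher and 1.56% lower. In Differentiation the mitochondrial unfolded protein response list had 7 lower, or 77.8%, and 0 higher of 9, with TRAP1, a mitochondrial HSP90, at -1.80 and HSPD1, the chaperonin HSP60, at -1.72. Mitochondrial chaperones named here were lower in Differentiation, while the median of the ER chaperones was 0.05. NRF2 targets had 1 lower, or 16.7%, and 0 higher of 6, thioredoxin (TXN) at -1.48. Medians of the 6 lists in siSTAU1 lay between 0.00 and 0.16, and in siUPF1 between -0.09 and 0.09.

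Cell identity was checked with marker genes. Of 10 noradrenergic neuroblastoma markers 0 were listed at 0, and their summed linear values lay between 5.13e+04 and 5.72e+04 in 4 libraries and at 3.95e+04 in Differentiation. HAND2 and GATA3, factors of the sympathetic lineage, stood between 11.83 and 14.53 in all 5 libraries. Of 12 markers of luminal breast and epithelial cells, 6 were listed at 0 in siControl, 5 in Nondifferentiation, 1 each in siUPF1 and Differentiation and 0 in siSTAU1, and their summed linear value was 1e+03 in siSTAU1 and 335 to 474 in the other 4. Such cells can express XBP1 strongly, and XBP1 had a log2 fold of 0.24 in siSTAU1. KRT8 and KRT18, keratins, stood at 7.53 and 7.56 there and at 2.49 in siControl, and the part of these markers in the XBP1 value was not tested. Of 8 hepatocyte markers 5 were listed at 0 in siUPF1, and ALB, albumin, stood at 9.02 there against 6.36 in siControl, and the part of this in the siUPF1 values was not tested. The blood marker PTPRC and the glial marker SOX10 were listed at 0 in all 5 libraries. In the differentiation pair 5 of 9 measured noradrenergic markers were lower past 1.5-fold and 1 was higher, or 55.6% and 11.1%. Of all measured genes 21.7% were lower and 21.8% higher. The markers ranged from TH, tyrosine hydroxylase, at -3.23 and ISL1, a homeobox factor, at -2.90 to CHGA, chromogranin A, at 1.6. The 2 reference libraries differed too: in siControl against Nondifferentiation TH had -2.13 and DBH, another of these markers, had -1.12. These were 2 of 8 measured markers lower past 2-fold, with 0 higher, where 0.573% of genes were lower and 0.222% higher. Of 8 mesenchymal markers 5 were measured in Differentiation against Nondifferentiation. There 2 were higher past 1.5-fold, COL3A1 at 2.45 and FN1 at 1.18, and 2 lower, VIM at -1.25 and TAGLN at -1.65. That is 40% each, where 21.8% of genes were higher and 21.7% lower. TAGLN, a smooth muscle actin-binding protein, also had -1.63 in siSTAU1 and 1.52 in siUPF1, and the part of these markers in the members' values was not tested. In bulk RNA a change in the mix of cells and a change in RNA per cell cannot be told apart.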

How the data were processed

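RNA of SH-SY5Y cells was measured in 5 libraries, 1 for each of 5 groups taken from the titles. Per the labels' protocols, 500 ng of Trizol-extracted total RNA entered a Lexogen Quant-Seq kit, which reads 3' ends. The authors deposited log2 expression values per gene symbol. The submitters' processing notes name Bowtie2, edgeR and hg19, without role or version. The sources used here do not give the counter, the annotation or any use of strand. The 5 libraries share a maximum of 18.01 and upper quartiles of 8.63 to 8.64, and 100% of nonzero linear values are multiples of 1/5 (tolerance 0.005 of that step), the pattern of quantile normalization, which is inferred. Such scaling hides differences in total RNA.

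Members and gene lists were chosen with earlier results of these data known. Every member is described, and members past 1.5-fold, ATF4, DDIT3, XBP1 and HSPA5 have all 5 values. Of the lists, up to 2 highest and 2 lowest called genes were eligible for naming. Log2 folds were differences of deposited values. Measured genes had a larger value at or above the median nonzero value, 7.84, 7.84, 7.76 and 7.81 in siSTAU1, siUPF1, Differentiation and siControl against their references. Linear values per read were the slope over the 20 lowest steps: 1.38 in siControl, 1.27 with siSTAU1, 1.16 with siUPF1, 1.07 in Nondifferentiation and 0.584 in Differentiation. A value of 0 is a gene apparently without reads, and in Differentiation 478 genes lie below 0. Of the listed symbols 3 were replaced by RefSeq's current ones. Promoters came from RefSeq on GRCh38.p14 and exon overlaps from GENCODE 29, which is not hg19, so gene positions are not given. Calculations used Python 3.11.15, numpy 2.4.6, pandas 2.3.3 and matplotlib 3.10.9, and were tested on simulated data.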

Additional observations from a re-analysis of the deposited data

How the results depend on the processing

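Folds were recomputed without the filter, with both values at the floor, with 16 added to the linear values, with the median of measured genes subtracted, with trends in GC content and length removed and with the other reference library. All 40 members had a GC value. Of the called folds of single members, 6 stayed measured but fell short of 1.5-fold under 1 of these settings each. With the other reference these were PPP1R15A in siUPF1 (0.06) and PHGDH (-0.12), SDF2L1 (-0.10) and SEL1L (0.58) in Differentiation. With the GC and length trend removed they were CALR (-0.55) and SDF2L1 (-0.50) in siControl against Nondifferentiation. That trend also left 7 members lower there in place of 9.

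Without the filter siSTAU1 had 3 members higher past 1.5-fold and 2 past 2-fold, and siUPF1 had 4 and 2, with 1 lower past 1.5-fold. The added members lay below the floor. With both values required at the floor, PHGDH, PSPH and DNAJB9 were no longer measured in Differentiation and so lost their calls. The same held for PHGDH and DDIT4 in siControl against Nondifferentiation. That left 1 member higher past 1.5-fold in Differentiation, and 0 higher and 8 lower in siControl against Nondifferentiation. With the GC and length trend removed 1 member was higher past 2-fold in Differentiation and 1 was lower past 2-fold in siControl against Nondifferentiation.

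Against Nondifferentiation siSTAU1 had 1 member higher and 5 lower past 1.5-fold and a median of -0.20, and siUPF1 had 7 lower past 1.5-fold, 1 higher and 1 lower past 2-fold and a median of -0.25. Differentiation against siControl had 11 higher and 9 lower past 1.5-fold, 3 higher and 5 lower past 2-fold and a median of 0.18. PHGDH reversed there, to -0.12. Shares of all genes were not worked out for these pairs with the other reference, so their counts have no background beside them. Leaving out 1 siRNA library gave 14 to 16 members lower in the siRNA libraries, with 9 chaperones, and 18% to 21.2% of all genes. Such a count can only stay or grow when a library is dropped, so this says nothing about stability.

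No paired analysis was possible because each group has 1 library. Counting error limits members near the floor, and ERN1, CEBPB, CHAC1 and SLC7A11 were too low to call.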
